A study of Mus musculus with 11 samples.

Results

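The colon of mice whose T cells lack the mitochondrial transcription factor TFAM (Tfam fl/fl Cd4 Cre without cell transfer, KO in the labels and here) was compared with the colon of control mice (Tfam fl/fl) by RNA sequencing of unsorted tissue. The comparison took 6 of the 11 libraries of the series, 3 of each genotype, and every gene whose normalized counts averaged 10 or more across the 11 libraries. This gave 16781 genes of the 22836 in the table, and the other 6055 had fewer reads and were not tested.

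TFAM packages mitochondrial DNA and starts its transcription, so T cells without it lose respiratory capacity. The Cre recombinase is driven by *Cd4*, which thymocytes express at the stage when they carry CD4 and CD8 together, and the deletion therefore reaches CD8 T cells as well as CD4 T cells. Both groups carry the floxed *Tfam* allele, so they differ by genotype in the Cre transgene and the deletion that it causes. The colon wall joins an epithelium of absorptive colonocytes, goblet cells and hormone cells to a lamina propria of immune cells and fibroblasts, a muscle coat with its own neurons and glia, and an outer mesothelium often attached to fat. Colonocytes feed on butyrate by mitochondrial oxidation, take up salt and water, and neutralise foreign compounds, while goblet cells make the mucus. The labels number the libraries and name no animal and no age, so the p-values below measure the spread between these samples, which may be technical. The segment of colon that was taken is not given in the sources used here.

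The libraries held 18214741 to 18994650 reads in genes in the control group and 18437516 to 19178986 in the KO group. Values below are the authors' normalized counts, in which 1 read is worth 0.942 to 1.10 units in these 6 libraries, and are listed in the order control 1, 2 and 3 and KO 1, 3 and 4. Where 3 values stand against 3, the control values come before the word. Distances between libraries were Euclidean, taken over the log2 levels of all tested genes at once, and are not fold changes of a gene. Libraries of 1 group lay 66.9 to 80.8 apart and libraries of different groups 145 to 187. The first principal component of the 6 libraries held 79.2% of their variance and separated the groups. *Epcam*, an epithelial marker, had 33860.3, 44779 and 32974 normalized counts in the control libraries and 35599, 37111 and 36949.9 in the KO libraries, and the intestinal transcription factor gene *Cdx2* had 5856, 6628 and 8127 against 6124, 4994 and 5868, so these markers of the labelled tissue were present in every library. Of 12 markers of colon identity 3 fell (*Slc26a3*, *Car1* and *Hoxa13*), 1 rose (*Cdh1*, 0.76) and 8 were not called. *Tfam* had 1083, 977 and 1018 normalized counts in the control libraries and 1054, 1102 and 1040.3 in the KO libraries, a difference of 0.06 on the log2 scale (adjusted p = 0.678 from limma). These levels overlapped, and since the labelled deletion is targeted to T cells, a level in unsorted tissue does not check it.

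At an adjusted p under 0.05 from limma, 7641 genes differed, which is 45.5% of those tested. The other 5 libraries, from Tfam fl/fl Cd4 Cre mice given CD4 T cells (called transferred here), entered the fit only to estimate the spread. Of the genes called, 3805 rose (22.7%) and 3836 fell (22.9%) in KO colon. The sizes were not alike in the 2 directions, since the median log2 fold change was 0.79 among genes that rose and -1.25 among genes that fell. At least 1 log2 unit separated the groups for 1526 genes that rose and 2335 that fell, but beyond 3 log2 units there were 320 that rose and 225 that fell, and beyond 5 there were 60 and 22. The 3 libraries of a group did not overlap with the 3 of the other for 9553 genes (56.9% of those tested), among them 7485 of the 7641 called. Each share given below for a group of genes is to be read against these background shares. Fold changes are differences of log2(normalized count + 1), which makes the changes of genes with few reads look smaller than they are.

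**Figure D1:**
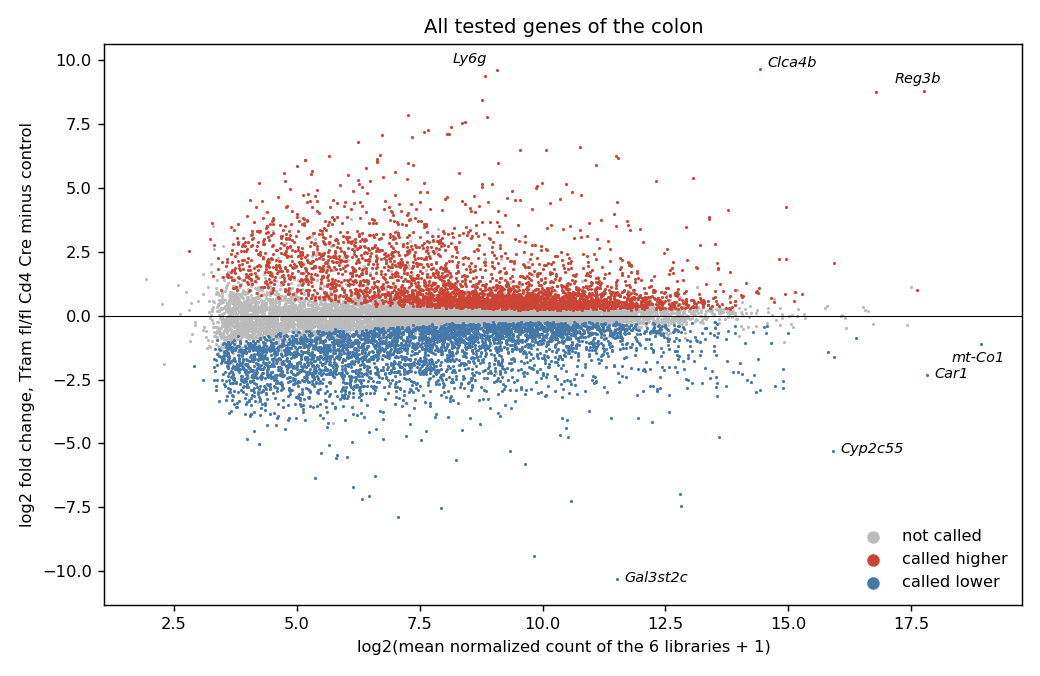
Log2 fold change (KO minus control) of each of the 16781 tested genes against the log2 mean normalized count of the 6 libraries, with the 3805 genes called higher in red, the 3836 called lower in blue and the others in grey. *Clca4b* (9.63) and *Reg3b* (8.78) stand apart at high counts.

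By fold, *Clca4b* was among the genes that rose most. This gene, of the family of calcium-activated chloride channel regulators, lies on chromosome 3 of GRCm39 from 144616682 to 144638290. It had 127, 33.8 and 36.4 normalized counts in the control libraries and 34121, 48060.5 and 50468 in the KO libraries. The log2 fold change was 9.63 (standard error, SE, 0.85, adjusted p = 1.76e-05 from limma), and the ratio of the means was 672. The controls were all low, control 1 being the highest of them, and all 3 KO libraries were high. Its neighbour and paralog *Clca4a*, from 144658241 to 144680806, had 14827, 32989.6 and 30890.2 normalized counts in the control libraries and 6444, 7687 and 6413 in the KO libraries, a change in the other direction of -1.86 (adjusted p = 0.0278 from limma). That call was lost when any of control 2, control 3 or KO 1, 3 or 4 was left out. The pair share sequence, and how shared reads were counted is not stated in the sources used here.

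*Ly6g*, a surface protein of neutrophils, had 0, 0.994 and 0 normalized counts in the control libraries and 656, 1658 and 889 in the KO libraries (log2 fold change 9.62, adjusted p = 5.82e-06 from limma). The chemokine gene *Cxcl2*, whose product draws neutrophils, had at most 0.942 in a control library and 177, 455 and 286 in the others. *Cxcl5*, of the same family, had 2.83, 0.994 and 1.1 against 173, 423 and 1351. In unsorted tissue, more cells of a type and more RNA per cell cannot be told apart, and the same holds for the losses described further on. *Prss22*, a serine protease gene, had 0, 1.99 and 11 against 418, 1081 and 537, and the calprotectin subunit gene *S100a9* had 0, 0.994 and 4.41 against 481, 1499 and 619.8. The neutrophil receptor gene *Cxcr2* was not read in the controls, and with 3 reads over that group as the floor its rise was at least 50.7-fold (33.6 to 60.4 with 1 library left out). All of these genes had separate groups. Among the KO libraries, replicate 3 was the highest for *Ly6g*, *Cxcl2*, *Prss22* and *S100a9*, while replicate 4 was the highest for *Cxcl5*.

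Measured in reads rather than in fold, *Reg3b* and *Reg3g*, which encode C-type lectins that bind bacteria, gained most. *Reg3b* had 6384, 406 and 337 normalized counts in the control libraries and 311092, 371502 and 646634 in the KO libraries. This was a log2 fold change of 8.78 (SE 1.15, limma adjusted p = 0.000155), with control 1 far above the other controls and still far under every KO library. *Reg3g* followed the same order of libraries, with 2102, 245 and 216 against 125066, 193653 and 353559.9. The pair are paralogs, and how reads that fit both were counted is not given in the sources used here. *Dmbt1*, a mucosal scavenger glycoprotein, was abundant in the controls and rose by less, with 133330.1, 118493 and 146667 normalized counts in the control libraries and 304325, 239492 and 261031 in the KO libraries (log2 fold change 1.01, adjusted p = 0.0069 from limma). That call was lost under quantile normalization (adjusted p = 0.107). *Plet1*, a surface protein of the epithelium, had 10905, 5286 and 21799 against 46199, 46532 and 60598, and the class I histocompatibility gene *H2-K1* had 26959.5, 30829 and 27766 against 48937, 55732 and 49863.

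Among the genes that fell most was *Gal3st2c*. It encodes a sulfotransferase that acts on galactose and lies on chromosome 1 from 93918231 to 93944869. It had 2863, 7098 and 7581 normalized counts in the control libraries and 7.83, 0.969 and 3.29 in the KO libraries, a log2 fold change of -10.32 (SE 1.64, limma adjusted p = 0.000486). No KO library held more than 8 normalized counts of it, against at least 2863 in each control. The sialidase gene *Neu4* follows it on the same strand, from 93948173 to 93956056. It had 86.7, 70.6 and 83.8 in the controls and no read in any KO library, so it was at least 79.2-fold lower against the floor of 3 reads.

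The unclassified transcript *Gm43697* had 113, 255 and 428 in the controls and no read in the KO libraries, at least 262-fold lower (182 to 337 with 1 library left out). The RNA *9130221F21Rik*, a lncRNA of chromosome 6, also had no read in the KO libraries, and was at least 156-fold lower. The strand setting of the counter is not given in the sources used here. *Reg4*, a gene of secretory cells at the base of colon crypts, had 11304, 15951 and 15123 normalized counts in the control libraries and 195, 80.4 and 82.1 in the KO libraries (log2 fold change -6.99, SE 1.19, limma adjusted p = 0.000738). The sugar-phosphate exchanger gene *Slc37a2* had 5323, 12923 and 24998 against 76.4, 72.7 and 53.7, so the controls differed nearly 5-fold and the other libraries little. *Ugt8a*, which makes galactosylceramide, had 138, 198 and 227 against 5.87, 0.969 and 0, and *Cps1*, the entry enzyme of the urea cycle, had 216, 182 and 127 against 0, 0 and 1.1.

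Genes that neutralise foreign compounds fell across the list. Of 41 genes of xenobiotic metabolism, 40 were tested, 34 fell and 1, *Cyp1b1*, rose, and the median log2 fold change was -1.68. The cytochrome P450 gene *Cyp2c55* had 91188, 128233 and 125219.9 normalized counts in the control libraries and 19876, 543 and 2281 in the KO libraries, which ranked it among the most abundant transcripts of control colon. Its log2 fold change was -5.29 (SE 0.96, adjusted p = 0.00107 from limma). The groups did not overlap, but the KO libraries ranged over more than 30-fold, with replicate 1 highest and replicate 3 lowest. *Cyp4b1* had 3161, 3713 and 2201 normalized counts in the control libraries and 42.1, 8.72 and 16.4 in the KO libraries, with a log2 fold change of -7.25 (SE 0.62, limma adjusted p = 1.36e-05). Outside the list, *Cyp4f15* had 93.3, 207 and 118 in the controls and at most 0.979 in the others.

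The list also holds enzymes that attach polar groups to foreign compounds. The glutathione transferase gene *Gstt1* had 884, 911 and 772 against 236, 137 and 147 (log2 fold change -2.34, adjusted p = 2.43e-05 from limma), and *Gstm3* had 2044, 1978 and 2116 against 493, 313 and 419 (log2 fold change -2.35, adjusted p = 2.58e-05). *Gstt1* and *Gstm3* were tight within each group. The carboxylesterase genes *Ces1g*, *Ces2a*, *Ces2c*, *Ces2e* and *Ces1f* had log2 fold changes of -4.14, -3.12, -2.03, -1.53 and -1.58, and the sulfotransferase genes *Sult1c2*, *Sult1a1*, *Sult1d1* and *Sult1b1* of -3.01, -2.93, -2.73 and -1.27. The efflux pump genes *Abcb1a* and *Abcg2*, which return drugs to the lumen, had -2.50 and -1.75. Of the nuclear receptors that switch these genes on, *Nr1i2* (PXR) was not called, with 1565, 1638 and 1704 against 1447, 1161 and 1581 normalized counts (adjusted p = 0.223 from limma). *Nr1i3* (CAR), with few reads, was called lower at -2.75 and lost the call without control 2 or 3 or KO 1 or 3. *Cyp1b1* had 2.83, 3.98 and 11 against 38.2, 62 and 8.76, and its call was lost without control 1 or 2 or KO 1 or 3. For *Ces1g*, *Ces2a*, *Sult1a1*, *Sult1d1*, *Abcb1a* and *Cyp2c65*, KO 1 lay nearest the controls and replicate 3 farthest, and for each of them the groups were still apart.

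**Figure D2:**
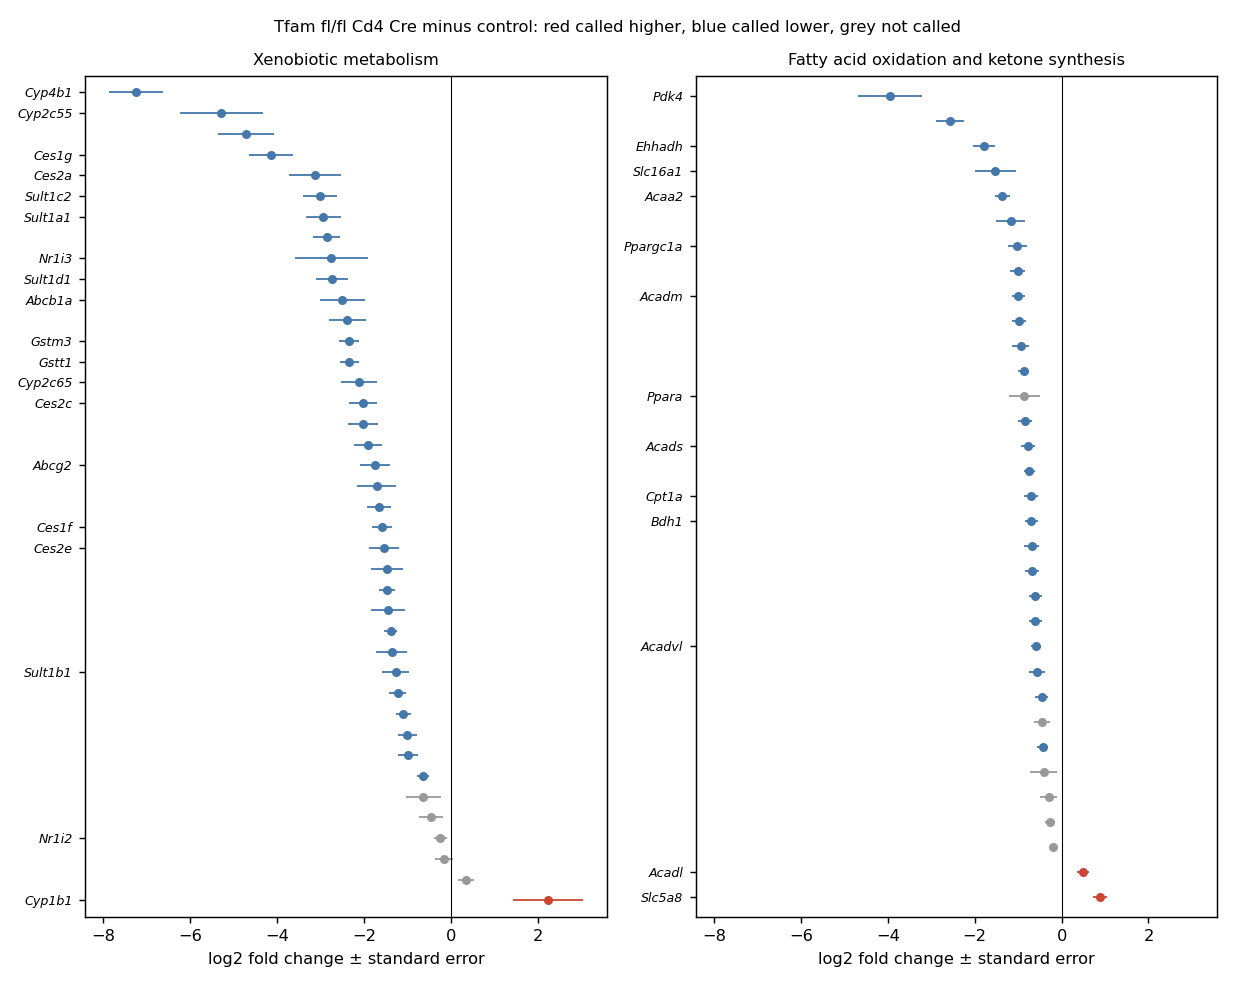
Log2 fold change (KO minus control) with its SE for each tested gene of xenobiotic metabolism (40 genes, left) and of fatty acid oxidation and ketone synthesis (33 genes, right), blue where called lower, red where called higher and grey where not called; genes named in the text are labelled. The left panel reaches to -7.25 (*Cyp4b1*), and in the right panel most genes lie between -2 and 0, with *Slc5a8* (0.89) and *Acadl* (0.49) on the other side.

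Fatty acid oxidation and ketone synthesis, by which colonocytes use butyrate, were lower in 25 of 33 tested genes and higher in 2, and the median log2 fold change was -0.70. *Bdh1*, an enzyme of ketone metabolism, fell, with 4702, 5356 and 5748 normalized counts in the control libraries and 3445, 3037 and 3276 in the KO libraries (log2 fold change -0.69, SE 0.16, limma adjusted p = 0.00395). In the oxidation spiral, *Acaa2* had 5013, 5479 and 5922 against 2542, 1617 and 2324 (log2 fold change -1.36, adjusted p = 0.000167 from limma). The acyl-CoA dehydrogenase genes *Acads*, *Acadm* and *Acadvl*, for short, medium and very long chains, had -0.78, -0.99 and -0.59, whereas *Acadl*, for long chains, rose with 2874, 3276 and 3410.1 against 4249.6, 4271 and 4929 (0.49, adjusted p = 0.00857 from limma). The peroxisomal gene *Ehhadh* had -1.79 and the carnitine gate *Cpt1a* had -0.70.

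Butyrate transport was split. *Slc5a8*, a sodium-coupled transporter of short-chain fatty acids, rose, with 2872, 2599.5 and 3650.4 against 5858, 4884 and 6115 (log2 fold change 0.89, adjusted p = 0.00103 from limma). *Slc16a1*, the proton-coupled one, had 5874, 11614 and 13241 against 3259.9, 2929 and 3927 (log2 fold change -1.53, adjusted p = 0.0204), with no overlap of the groups, and its call was lost without control 2 or 3 or KO 3. *Pdk4*, a kinase that turns the cell from glucose to fat, had 307, 809 and 2051 normalized counts in the control libraries and 117, 19.4 and 56.9 in the KO libraries (log2 fold change -3.95, SE 0.73, limma adjusted p = 0.00122), with wide spread in both groups. The coactivator gene *Ppargc1a* fell by 1.02 on the log2 scale, and the receptor gene *Ppara* was not called (log2 fold change -0.86, adjusted p = 0.0685 from limma).

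Few nuclear genes of the mitochondrial machinery itself were called. Of 75 nuclear genes of the respiratory chain, 4 fell and 1 rose, and the median log2 fold change was -0.15, so 6.67% of them were called against 45.5% of all genes. Called or not, 63 of the 75 had a negative fold change and 12 a positive one. The number that fell was 24 under quantile normalization, 11 with DESeq2 and 7 with TMM scaling, while the 1 that rose was lost without control 2, control 3, KO 3 or KO 4. Single libraries moved the number that fell from 0 (without KO 1 or 3) and 1 (without control 2 or 3) to 7 without transferred 1, 8 without control 1 and 9 without transferred 6. *Atp5f1b*, of ATP synthase, had 32064, 33775 and 36978 against 31382, 35068 and 37499.6, and the complex I gene *Ndufs1* had 2426, 2781 and 2824 against 2377, 2526 and 2741. Of 40 genes of mitochondrial DNA maintenance and the mitochondrial ribosome, 3 fell and 2 rose. Without control 3, 1 fell, and the number that rose was 0 without KO 3, KO 4, transferred 2 or transferred 4, and 1 without control 1, control 3, KO 1 or transferred 1, 3 or 6. *Polg2*, the accessory subunit of the mitochondrial DNA polymerase, fell, with 272, 377 and 277 against 159.6, 119 and 172 (log2 fold change -1.03, adjusted p = 0.000864 from limma), and the polymerase gene *Polg* had 984, 961 and 1029.7 against 1049, 1174 and 1104.

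Of the 13 protein genes of the mitochondrial genome, 4 fell and none rose, and the median log2 fold change was -0.45. All 13 had a negative fold change. Of the 17 tested genes of chromosome M, 7 fell (41.2%, against 22.9% of all genes). *mt-Co1*, the most abundant gene in the control libraries, had 573221, 568223 and 905276 normalized counts in the control libraries and 367622, 251898 and 304138 in the KO libraries (log2 fold change -1.13, SE 0.37, limma adjusted p = 0.0255). Control 3 was higher than the other controls and the groups did not overlap. The call was lost without control 3 (adjusted p = 0.0797), KO 3 (0.0967) or KO 4 (0.0558), and also with quantile normalization (0.0737), a pseudocount of 10 (0.0540) or a fit of the 6 libraries alone (0.0594). The number of the 13 genes that fell was 8 without control 2 or with DESeq2, 1 without control 3 and 0 without KO 3. Both mitochondrial ribosomal RNAs fell. Together, mitochondrial transcripts took 4.63% to 6.73% of the reads in control libraries and 2.55% to 3.44% in KO libraries.

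Genes of ion and water transport by colonocytes moved in both directions. Of 34 tested genes, 11 fell and 7 rose (median log2 fold change -0.27). The 7 that rose are a share under the 22.7% of all genes, and the 11 that fell a share above the 22.9%. The chloride-bicarbonate exchanger gene *Slc26a3* had 7986, 12094 and 14014 normalized counts in the control libraries and 973, 478 and 1122 in the KO libraries, a log2 fold change of -3.78 (SE 0.72, limma adjusted p = 0.00141). The carbonic anhydrase genes *Car1*, *Car2* and *Car12*, which supply bicarbonate, had log2 fold changes of -2.34, -2.64 and -1.28. For *Car1* the levels were 283525, 411197 and 467708 against 114797, 49234 and 74051. The magnesium channel gene *Trpm6* had 2187, 3409 and 2502 against 204, 72.7 and 249.7 (-4.09, adjusted p = 0.000172 from limma), and *Guca2a*, which encodes guanylin, a regulator of fluid secretion, had 25341, 30195 and 28983 against 6607, 4581 and 6548 (-2.27, adjusted p = 0.000143). In each of these genes every KO library lay under every control. The related gene *Guca2b* was called the other way (0.97, adjusted p = 0.0139 from limma), and its call was lost without control 2 or 3 or KO 4.

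The water channels moved apart. *Aqp8* had 10629.9, 18489.9 and 41272 against 2943, 165 and 826 (log2 fold change -4.77, SE 1.16, limma adjusted p = 0.00588), while *Aqp4* had 403, 157 and 195 against 2497, 1851 and 3972 (3.51, SE 0.40, adjusted p = 6.58e-05). The groups were apart for both genes, in opposite directions. The sodium-proton exchangers also divided, since *Slc9a3* rose, with 2087, 970.2 and 1477 against 6526, 4159.8 and 3528 (1.67, adjusted p = 0.000974 from limma), and *Slc9a2* fell, with 6922, 8676 and 8388 against 4835, 3315 and 4618 (-0.92, adjusted p = 0.00692). The chloride channel gene *Cftr* had 1449, 1323 and 1632 against 2000.0, 1482 and 1210.0 and was not called. The number of transport genes that rose was 3 without control 2 and 4 without control 3, KO 1 or KO 3. Several transporters differ along the length of the colon, and 10 of 26 HOX genes, which mark position along the gut, fell (described further on). The part of the sampled segment in these results was not tested.

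**Figure D3:**
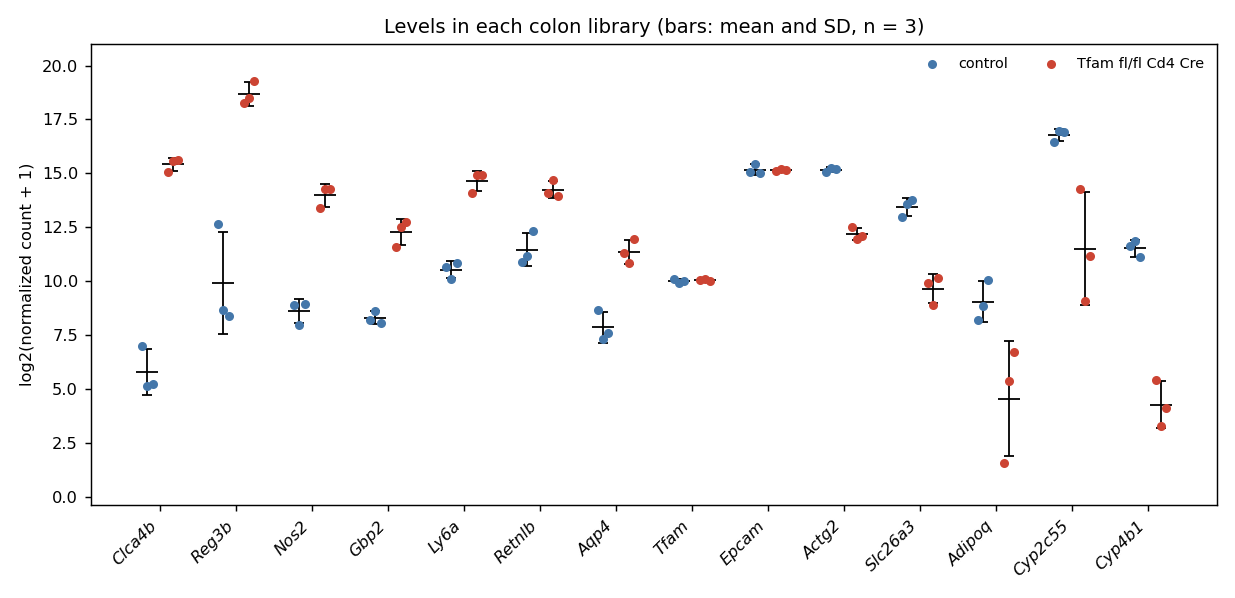
Level of 14 genes in each of the 6 libraries as log2(normalized count + 1), with bars for the mean and SD of the 3 control (blue) and 3 KO (red) libraries. *Tfam* and *Epcam* overlap, *Clca4b*, *Reg3b*, *Nos2*, *Gbp2*, *Ly6a*, *Retnlb* and *Aqp4* are higher and the other 5 genes lower in every KO library, with the widest spread for *Cyp2c55*, *Adipoq* and *Reg3b*.

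Among goblet cell and mucus genes, an antibacterial protein, enzymes of mucin sugar chains and the membrane mucins *Muc1* and *Muc4* rose. Of 24 tested genes 8 rose and 1, *Reg4*, fell, and the median log2 fold change was 0.68. *Retnlb*, an antibacterial goblet cell protein, had 1923, 2264 and 5207 normalized counts in the control libraries and 17627, 26841 and 15643 in the KO libraries (log2 fold change 2.78, SE 0.39, limma adjusted p = 0.000234). The enzymes that begin and extend mucin sugar chains, *Galnt3* and *C1galt1*, had 1.16 and 1.07, with adjusted p of 1.15e-05 and 0.000155. *C1galt1* and *Galnt3* were tight, with 961, 830.1 and 902 against 1915, 2220.4 and 1899 for the latter. The membrane mucin gene *Muc4* rose, with 2161, 1314 and 4757 against 10237, 11053 and 9202 (2.09, adjusted p = 0.000939 from limma), and *Muc1* had 54.6, 18.9 and 22.1 against 428, 204 and 200.4. *Muc17*, a membrane mucin of the absorptive surface, had 85632, 113632 and 129332 against 59239, 49138 and 71817, and its call as lower (-0.86, adjusted p = 0.0441 from limma) was lost without control 2 or 3 or KO 1 or 3 (adjusted p from 0.0860 to 0.145), and also without transferred 3 or 4 (0.0523 and 0.0561), which are not compared but share the fit.

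*Muc2*, the gel-forming mucin, had 240389, 83461 and 64129 against 279250.0, 280382 and 170803 (log2 fold change 1.13, adjusted p = 0.245 from limma), and was not called. Control 1 lay among the KO libraries for *Muc2*, and for *Agr2*, which folds mucin, with 20526, 8186 and 6267 against 20519, 22805 and 17582. *Tff3* had 9636, 7228 and 7232 against 10088, 7941 and 7869, and *Fcgbp* had 50563, 35086 and 43121 against 40784, 34873 and 46132, with overlapping groups for both. The antimicrobial gene *Ang4* rested on 1 library, control 3, with 89.5, 28.8 and 4803 in the controls against 579.5, 451 and 246 in the others. The number of goblet cell genes that rose was 5 without KO 1, and 2 fell without control 2. Of 15 intestinal genes chosen as PCR targets, *Muc2*, *Tff3* and *Ang4* among them, 6 rose and 1 fell. *Lyz1*, a lysozyme of Paneth cells and macrophages, was called higher (1.72, adjusted p = 0.017 from limma) with 41.4, 74.6 and 111 against 264, 154 and 314, and lost the call without control 1 or KO 4.

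On the brush border, 11 of 25 genes fell and 2 rose, and the median log2 fold change was -0.61. The meprin protease gene *Mep1a* had 9598, 11337 and 10876 against 2788, 1819 and 3591 (-2.01, adjusted p = 0.000535 from limma). The cadherins that tie microvilli together, *Cdhr5* and *Cdhr2*, had log2 fold changes of -1.08 and -1.06. The core bundle genes *Vil1* and *Myo1a* were not called, with 0.11 and 0.19. The number that fell was 5 without control 2, 6 without control 3 or KO 1, and 4 without KO 3, and the number that rose was 1 without control 3 or KO 4.

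Genes of regenerating epithelium, which mark repair after injury, rose in 17 of 26 and fell in 2 (4 without control 1), and the median log2 fold change was 1.36. *Ly6a* (Sca-1), a surface protein of repairing crypts and also of some lymphocytes and vessels, had 1616, 1085 and 1842 normalized counts in the control libraries and 17663, 31027 and 30869 in the KO libraries (log2 fold change 4.12, SE 0.37, limma adjusted p = 1.98e-05). *Ly6d* had 65.9, 29.8 and 52.9 against 579.5, 699 and 338, and *Anxa1* had 1147, 1283 and 743 against 3490.0, 6894 and 4821 (3.43 and 2.24). The groups were apart for *Ly6a*, *Ly6d* and *Anxa1*. The growth factors of the EGF family were not alike. *Areg* and *Ereg* rose (1.81 and 1.54), *Hbegf* fell (-1.09, adjusted p = 0.00495 from limma) and *Tgfa* was not called (-0.19). *Ccn2*, a target of the YAP pathway, fell, with 425, 507 and 782 against 163, 180.2 and 79.9 (-2.05, adjusted p = 0.000231 from limma).

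Of 22 crypt stem cell and WNT target genes 7 rose and 5 fell, to be read against 22.7% and 22.9% of all genes. The stem cell gene *Lgr5* had 50.9, 35.8 and 63.9 against 34.3, 40.7 and 20.8 and *Axin2* had 532, 385 and 314 against 459, 299 and 394, and neither was called. *Ephb2* rose (1.05, adjusted p = 0.00175 from limma) and *Nkd1*, an inhibitor of WNT signalling, fell, with 693, 865 and 625 against 189, 157 and 132 (-2.18, adjusted p = 1.41e-05). The number that rose was 4 without control 3 or KO 3 and 3 without KO 1, and the number that fell was 3 without control 1 or 3. Of 28 genes of the cell cycle and DNA replication, 20 rose and none fell (median log2 fold change 0.72). *Ccnd1*, cyclin D1, had 1517, 1059.7 and 1632 against 4232, 5407 and 6973 (1.97, adjusted p = 5.85e-05 from limma), and *Top2a*, a topoisomerase of dividing cells, had 1340.4, 1089 and 1138 against 2109.6, 3188 and 2499 (1.11, adjusted p = 0.00133). The number that rose depended on single libraries, with 9 without control 2, 12 without control 3, 7 without KO 3 and 10 without KO 4. Of 22 markers of hormone and tuft cells, 8 fell and 1 rose. *Sst* (somatostatin) and *Chga* (chromogranin A) had -2.17 and -2.09, and *Gcg* and *Pyy* were not called. The number that fell was 4 without control 1 or KO 3, and the 1 that rose was lost without control 3 or KO 4. The summed level of these markers, 4055 to 10370 in the control libraries and 2835 to 4529 in the KO libraries, overlapped.

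The interferon-induced GTPases, which attack the vacuoles of intracellular microbes, rose as a family. All 19 tested guanylate-binding protein and immunity-related GTPase genes rose and none fell, the median log2 fold change was 3.30 and the range ran from 2.40 (*Ifi47*) to 5.97 (*Tgtp1*). Both promoter elements that interferon signals act through were looked for in the 250 bases before the start of each gene. The gamma-activated site (GAS, TTCNNNGAA, the same on both strands) was found in 1106 of 16718 promoters of tested genes (6.62%) and in 9 of these 19 (47.4%). An interferon-stimulated response element type match (GAAANNGAAA, either strand) was found in 530 of all (3.17%) and in 7 of the 19 (36.8%). A match is a description of letters, not a binding site. The 120 bases before the start are shown for 3 members to show how the matches are arranged, with the matched bases in capitals and the sequence read 5′ to 3′ on the strand of the gene in GRCm39. *Irgm2* is taken from chr11:58090324-58090443 (plus strand), *Tgtp2* from chr11:48955032-48955151 (minus strand) and *Gbp7* from chr3:142235924-142236043 (plus strand).
Irgm2: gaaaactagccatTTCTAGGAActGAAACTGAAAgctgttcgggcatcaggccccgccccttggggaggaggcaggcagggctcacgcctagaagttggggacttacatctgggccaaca
Tgtp2: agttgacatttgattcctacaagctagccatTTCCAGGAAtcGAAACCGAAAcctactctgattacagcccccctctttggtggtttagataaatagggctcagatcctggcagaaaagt
Gbp7: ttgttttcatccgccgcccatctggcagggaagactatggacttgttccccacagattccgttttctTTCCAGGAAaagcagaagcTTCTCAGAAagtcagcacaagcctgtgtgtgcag

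In *Irgm2* the GAS match lies 99 to 107 bases and the response element match 87 to 96 bases before the start, and in *Tgtp2* they lie 81 to 89 and 69 to 78 bases before it, in the same order. *Gbp7* holds GAS matches at 45 to 53 and 26 to 34 bases. *Irgm2* had 332, 420.5 and 443 normalized counts in the control libraries and 2643, 3425 and 4288 in the KO libraries (log2 fold change 3.10, SE 0.22, limma adjusted p = 5.82e-06). *Tgtp2* had 24.5, 23.9 and 38.6 against 642, 781 and 823 (4.67, adjusted p = 1.13e-05), and *Gbp7* had 69.7, 95.4 and 82.7 against 526, 777 and 918 (3.12, adjusted p = 8.97e-06 from limma). The groups were far apart for *Irgm2*, *Tgtp2* and *Gbp7*, and replicate 1 was the lowest and replicate 4 the highest of the KO libraries in each. *Igtp*, with no match of either kind in its window, had 236, 227 and 290.0 against 3729, 6053 and 6933 (4.43, adjusted p = 4.29e-06 from limma), and *Gbp2*, also without one, had 296, 396 and 269 against 3054, 5805 and 6938. Members such as *Tgtp1* and *Tgtp2*, *Iigp1* and *Iigp1c*, and *Gbp6* and *Gbp10* are near copies that may share reads.

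The immunoproteasome, which cuts peptides for class I presentation, and the genes that load those peptides rose in 16 of 16, and the median log2 fold change was 1.23. *Psmb8* had 628, 559 and 706 normalized counts in the control libraries and 5463, 6999 and 6731 in the KO libraries (log2 fold change 3.34, SE 0.25, limma adjusted p = 8.05e-06). *Psmb9* and *Psmb10*, the other catalytic subunits, had 3.09 and 1.42, and the cap genes *Psme1* and *Psme2* had 1.19 and 0.76. The peptide transporter gene *Tap1* had 526, 433 and 658 against 4504, 6808 and 7560.2 (3.53, adjusted p = 8.37e-06 from limma), and *Tap2* rose less (1.48). *Nlrc5*, the transactivator of class I genes, had 55.6, 52.7 and 77.2 against 1131, 1652 and 1494 (4.51, adjusted p = 1.76e-05). The groups were apart for *Psmb8*, *Tap1* and *Nlrc5*. None of these 16 promoters held a GAS or response element match in its 250 bases.

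**Figure D4:**
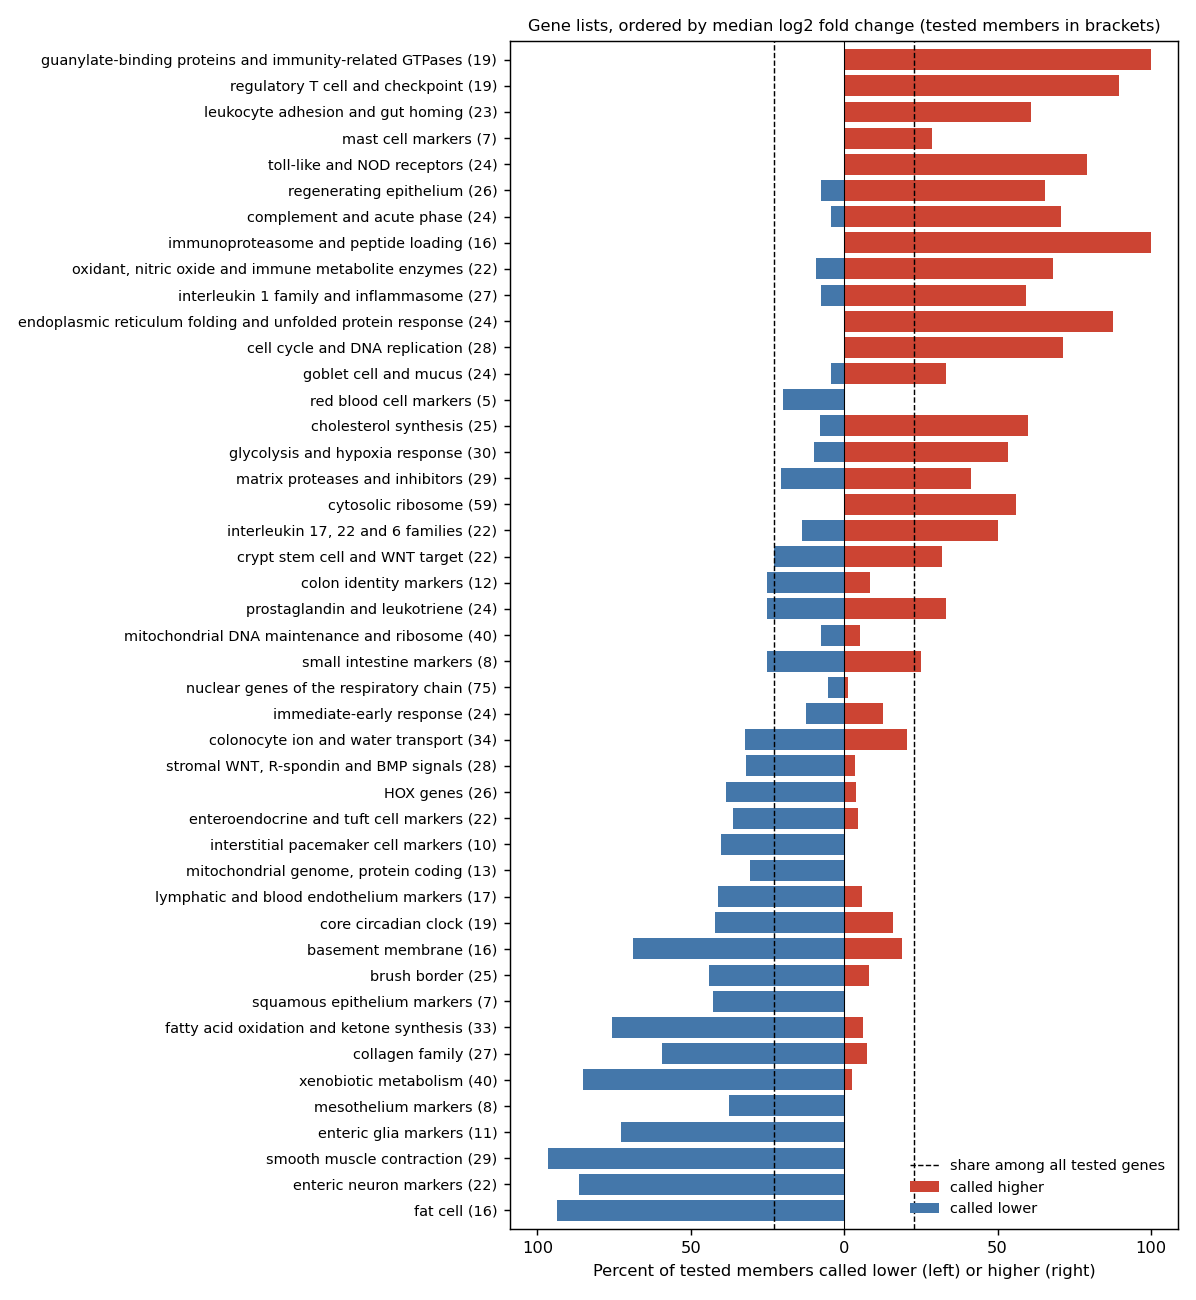
Percent of the tested members of each gene list called lower (blue, to the left) or higher (red, to the right) in KO colon, with lists ordered by median log2 fold change and the shares among all tested genes (22.9% lower, 22.7% higher) as broken lines. All 19 guanylate-binding proteins and immunity-related GTPases and all 16 immunoproteasome genes were higher, and 28 of 29 smooth muscle genes and 15 of 16 fat cell genes were lower.

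Enzymes that make oxidants and immune metabolites rose in 15 of 22 and fell in 2. *Ido1*, which breaks down tryptophan, had 165, 126 and 15.4 against 3099, 8156 and 5816 (6.23, SE 0.75, adjusted p = 9.26e-05 from limma), and *Acod1*, which makes itaconate, had 5.65, 0.994 and 0 against 187, 496 and 283 (6.98, adjusted p = 0.000248). Control 3 was the lowest control for *Ido1* and *Acod1*. The phagocyte oxidase genes *Cybb* and *Ncf1* had 3.12 and 2.43, and the epithelial oxidases *Duox2* and *Noxo1* rose less, with 0.95 and 1.03. The arginases were split, since *Arg2* fell (-1.67, adjusted p = 0.00527 from limma) and *Arg1* had 34.9, 11.9 and 11 against 244, 518 and 115, a rise that was lost without control 2 or 3 or KO 3.

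Receptors for microbial products rose in 19 of 24 and fell in none (median log2 fold change 1.55). *Cd14*, a coreceptor for lipopolysaccharide, had 494, 509 and 671 against 2136, 2863 and 2064 (2.07, adjusted p = 2.14e-05 from limma), and *Clec4e*, a lectin of macrophages and neutrophils, had 1.88, 1.99 and 1.1 against 96.9, 348 and 136 (5.99, adjusted p = 2.89e-05). *Tlr4* rose (1.90), whereas *Tlr2* and *Tlr5* were not called (0.18 and -0.78). Of 27 genes of the interleukin 1 family and the inflammasome, 16 rose and 2 fell. *Il36g*, an epithelial member of that family, had no read in any control library and 53.8, 103 and 53.7 in the others, at least 69.2-fold higher. *Il1b* had 32, 29.8 and 58.4 against 848, 2190.3 and 811 (4.87, adjusted p = 3.18e-05 from limma). Of the cytokine traps, *Il18bp* and *Il1r2* rose (3.28 and 3.85). The gasdermins split, since *Gsdmd*, the pore protein of pyroptosis, rose (1.01) and the colonocyte genes *Gsdmc2* and *Gsdmc4* fell (-2.44 and -3.13, adjusted p = 0.00964 and 0.00959 from limma).

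In the interleukin 17, 22 and 6 families 11 of 22 rose and 3 fell. *Osm* (oncostatin M) and its receptor gene *Osmr* rose together (4.11 and 2.58), and *Osmr* had 103, 110.3 and 138 against 611, 709 and 789.5. *Il17a* had 0.942, 0 and 2.21 against 40.1, 158 and 17.5 (4.75, adjusted p = 0.000537 from limma), and *Socs3*, the feedback inhibitor of this signalling, had 399, 202 and 275 against 1906, 3560.1 and 7568 (3.72, adjusted p = 0.000186). *Il11* was carried by replicate 3, with 65.6, 561 and 88.7 in the KO libraries and 6.59, 11.9 and 8.82 in the controls, and was called with each library left out. *Il17re*, a receptor chain of the epithelium, fell (-0.86, adjusted p = 0.00123 from limma), and *Il22ra1* was not called (0.03). Of 24 complement and acute phase genes, 17 rose and 1, *Cfd*, fell. *Lrg1* had 55.6, 74.6 and 98.1 against 3149, 6260.0 and 8136 (6.18, adjusted p = 0.000143 from limma), and *Lcn2*, which withholds iron from bacteria, had 43.3, 48.7 and 41.9 against 647, 1849 and 1093 (4.59, adjusted p = 0.000159). *Cfd*, also called adipsin, is made by fat cells and stands on the fat cell list too.

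T cell checkpoint and regulatory genes rose in 17 of 19 and fell in none (median log2 fold change 2.15). *Pdcd1* (PD-1) had 2.83, 3.98 and 2.21 against 53.8, 83.3 and 39.4 (3.86, adjusted p = 5.5e-05 from limma), and its ligand gene *Cd274* had 196, 271 and 233 against 944, 1476 and 1601 (2.49, adjusted p = 1.62e-05). *Ctla4* rose (2.32). *Foxp3*, the defining gene of regulatory T cells, had 7.54, 2.98 and 15.4 against 38.2, 30.0 and 24.1 (1.92, adjusted p = 0.0323 from limma), and its call was lost without control 1 or 2 or any 1 of the KO libraries. For comparison, *Cd4* had 49.9, 46.7 and 99.2 against 288, 263 and 358. Adhesion and gut homing genes rose in 14 of 23 and fell in none. *Icam1* and *Vcam1*, which hold leukocytes on vessels, had 2.78 and 2.07, and the chemokine genes of the gut epithelium, *Ccl25* and *Ccl28*, were not called (-0.46 and -0.04). In the prostaglandin and leukotriene pathway 8 of 24 rose and 6 fell, to be read against 22.7% and 22.9% of all genes. The secreted phospholipase genes *Pla2g2a* and *Pla2g5* rose (6.47 and 3.92), *Hpgd*, which destroys prostaglandins, fell, with 3425, 3156 and 2134 against 1548, 1135 and 1199 (-1.15, adjusted p = 0.000604 from limma), and the receptor genes *Ptger1* and *Ptger3* fell (-1.70 and -1.45).

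Genes of protein folding and of sterol synthesis rose. Of 24 genes of the endoplasmic reticulum and its unfolded protein response, 21 rose and none fell (median log2 fold change 0.85). The chaperone gene *Hspa5* (BiP) had 8788, 6012 and 7369 normalized counts in the control libraries and 14647, 18721 and 19329 in the KO libraries (1.26, adjusted p = 0.000154 from limma). *Xbp1*, a transcription factor of this response and of plasma cells, had 3849, 2986 and 3438 against 5928, 6357 and 7625 (0.95, adjusted p = 0.000388). *Ddit3* (CHOP), the death-linked branch, was not called, with 255, 418 and 358 against 256, 198 and 268. Immunoglobulin transcripts took 0.141% to 0.294% of the reads in control libraries and 0.918% to 1.10% in KO libraries, and their part in this rise was not tested. Of 25 genes of cholesterol synthesis, 15 rose and 2 fell (9 rose under the study's threshold of a log2 fold change over 0.6). Without control 2, control 3 or any 1 of the KO libraries, 1 fell. *Dhcr7*, a last step of the pathway, fell (-0.56, adjusted p = 0.0065 from limma).

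Of 30 genes of glycolysis and the hypoxia response, 16 rose and 3 fell. *Pfkfb3*, which drives glycolysis, had 154, 173 and 141 against 829, 1691 and 1831 (3.13, adjusted p = 3.82e-05 from limma). *Hk2* had 4227, 2629 and 5299.8 against 11599.6, 15333 and 15519, and the lactate exporter gene *Slc16a3* had 123, 116 and 378 against 1456, 2401 and 2023 (1.85 and 3.44). The groups were apart for *Pfkfb3*, *Hk2* and *Slc16a3*. *Hif1a*, the hypoxia factor, rose, with 492, 626 and 945 against 3141, 3599 and 3925 (2.42, adjusted p = 0.000144 from limma), while its targets *Vegfa* and *Slc2a1* were not called (-0.10 and 0.11). *Pfkm*, the muscle form of phosphofructokinase, fell (-1.34) and *Pfkp*, the platelet form, rose (1.57). Of 59 genes of the cytosolic ribosome, 33 rose by little and none fell (median log2 fold change 0.32). The number was 16 under quantile normalization, 13 without control 3, 15 without KO 4, and 1 under the study's threshold.

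Genes of the muscle coat, its neurons and its glia fell. Of 29 genes of smooth muscle contraction, 28 fell and none rose, and the median log2 fold change was -2.42. *Actg2*, the enteric smooth muscle actin, had 33931, 39399 and 37249 normalized counts in the control libraries and 5834, 3996 and 4372 in the KO libraries (log2 fold change -2.98, SE 0.20, limma adjusted p = 5.75e-06). *Myh11*, smooth muscle myosin, had 49266, 63281 and 47126 against 9966, 6111 and 6794 (-2.82, adjusted p = 9.87e-06). The log2 fold changes of the structural genes *Acta2*, *Tagln*, *Cnn1*, *Des*, *Mylk* and *Smtn* lay between -2.42 and -2.77. In each of these 8 genes control 2 was the highest control and replicate 1 the highest KO library, and the groups lay far apart. *Srf*, the transcription factor of this program, fell by less, with 1463, 1904 and 1958 against 1079.8, 1195 and 1201 (-0.60, adjusted p = 0.00535 from limma). Its coactivator *Myocd* had 34.9, 59.6 and 44.1 against 22.5, 10.7 and 12, a call that was lost without control 2 or KO 3 or 4. The summed level of the 29 genes was 345075 to 429448 in the control libraries and 65737 to 87361 in the KO libraries, a mean 0.200 times that of the controls. By histology, the paper describes the muscle layer of the colon as thickened in mice of this genotype. RNA levels in pieces of tissue do not measure the thickness of that layer.

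The CArG box, the sequence that SRF binds, was found on either strand in the 250 bases before the start of 207 of 16718 tested genes (1.24%) and of 2 of the 29 smooth muscle genes (6.90%), *Tagln* and *Srf*. The share was not particular to smooth muscle. It was 12.5% of the immunoproteasome list (2 of 16), which rose, and 8.33% of the immediate-early list (2 of 24). Among all genes called lower it was 1.65%. Their last 80 bases before the start are shown because these hold the matches, in capitals, from chr9:45847405-45847484 (minus strand) and chr17:46867120-46867199 (minus strand) of GRCm39.
Tagln: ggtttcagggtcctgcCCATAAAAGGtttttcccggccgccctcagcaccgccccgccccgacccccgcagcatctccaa
Srf: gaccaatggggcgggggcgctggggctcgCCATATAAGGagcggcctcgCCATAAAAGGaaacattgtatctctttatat

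In *Tagln* the match lies 55 to 64 bases and in *Srf* 42 to 51 and 22 to 31 bases before the start. *Tagln* had 29701, 37615 and 26189 against 6575, 5009 and 4830.2 normalized counts (-2.51, adjusted p = 1.13e-05 from limma). Elements outside this window were not searched.

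Of 22 markers of enteric neurons, 19 fell and none rose (median log2 fold change -2.51). *Nefl*, a neurofilament, had 339, 519.9 and 294 against 39.2, 24.2 and 32.9 (-3.53, SE 0.27, adjusted p = 8.05e-06 from limma). *Uchl1*, an abundant neuronal enzyme, had 710.2, 741 and 423 against 176, 104 and 65.7 (-2.50, adjusted p = 0.000256). *Calb2*, a calcium-binding protein of some of these neurons, had -3.14 and *Nos1*, the synthase of inhibitory motor neurons, had -2.11 (adjusted p = 0.0111 from limma). *Ret* was not called, with 402, 493 and 212 against 201, 277 and 145. Control 3 was the lowest control for *Nefl*, *Uchl1* and *Nos1*, and stayed above every KO library. Of 11 glia markers 8 fell and none rose. *Sox10* had 159, 189 and 111 against 38.2, 19.4 and 25.2 (-2.45, adjusted p = 6.54e-05 from limma) and *S100b* had 75.4, 68.6 and 56.2 against 10.8, 8.72 and 2.19. Of 10 markers of interstitial pacemaker cells 4 fell, such as *Etv1* (-1.90), while the defining genes *Kit* and *Ano1* were not called (-0.62 and -0.23). The summed levels of neuron and glia markers were 4.59-fold and 2.44-fold lower in KO colon, with no overlap, and that of pacemaker cell markers 1.54-fold lower with overlapping groups. How much of the muscle layer was in each tissue piece is not given in the sources used here, and its part in these losses was not tested.

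**Figure D5:**
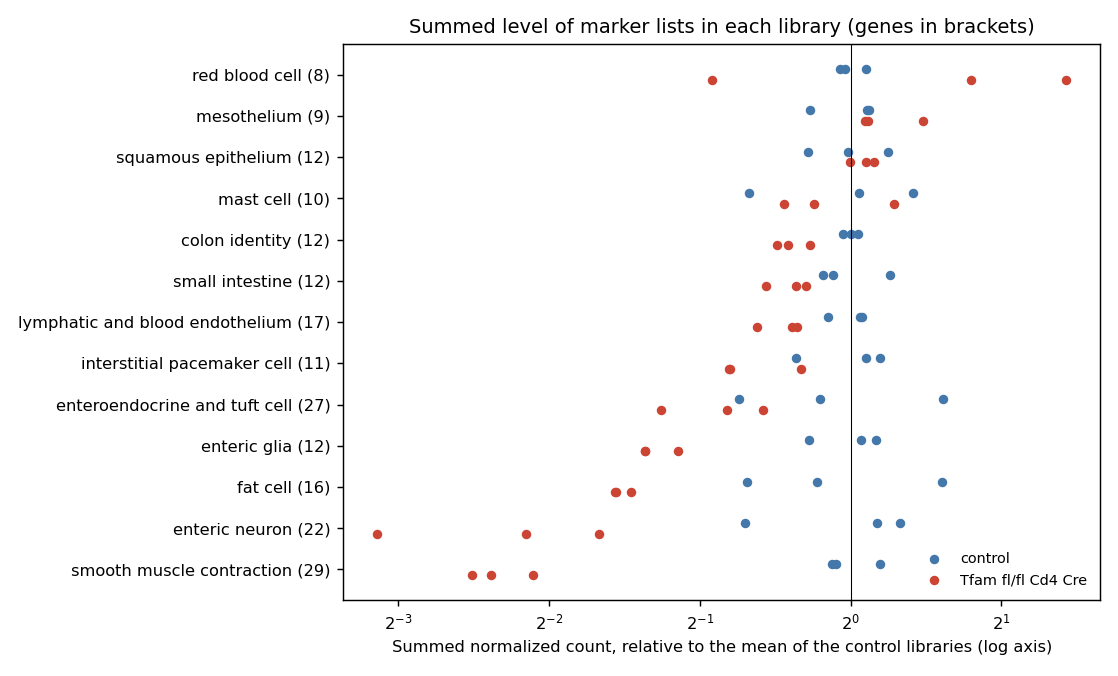
Summed normalized count of each marker list in the 3 control (blue) and 3 KO (red) libraries, relative to the mean of the controls, on a log2 axis. Smooth muscle, enteric neuron, fat cell and enteric glia sums do not overlap and had KO means of 0.200, 0.218, 0.348 and 0.410 times the control means, while mast cell, squamous epithelium, mesothelium and red blood cell sums overlap. A sum follows the most abundant genes of its list. By the median log2 level, KO minus control was 2.25 for mast cell, -0.88 for squamous epithelium, -3.04 for mesothelium and -0.33 for red blood cell markers.

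Fat cell genes fell in 15 of 16, with none higher and a median log2 fold change of -2.58. *Plin4*, a lipid droplet coat protein, had 1039.9, 1409.6 and 1238 against 178, 114 and 210.2 (-2.90, SE 0.20, adjusted p = 5.82e-06 from limma). *Adipoq* (adiponectin) had 291, 464 and 1075 normalized counts in the control libraries and 1.96, 39.7 and 105 in the KO libraries (-4.49, SE 1.01, adjusted p = 0.00392), and *Lep* (leptin) had 17.9, 31.8 and 68.4 against 0, 0.969 and 6.57. For *Adipoq* and *Lep*, control 3 was the highest control and replicate 1 the lowest KO library. Of 8 mesothelium markers, 3 fell and none rose. *Muc16*, on chromosome 9 from 18406745 to 18585826, had 227, 478 and 745 against 0, 11.6 and 0 (-7.54, adjusted p = 0.00042 from limma), and *Wt1* and *Upk3b* had few reads and calls that were lost without control 2 or KO 4, and for *Upk3b* also without KO 1 and with edgeR or DESeq2 (adjusted p = 0.0809 and 0.113). The number of mesothelium markers that fell was 1 without control 2 or KO 4 and 5 without KO 3. The summed level of fat cell markers was 9048 to 9727 in the KO libraries and 16626 to 40690 in the control libraries, lowest in control 1 and highest in control 3. How much attached fat and mesothelium was in each tissue piece is not given in the sources used here. Its part in the falls of fat cell and mesothelium genes was not tested. Of 17 endothelium markers 7 fell and 1 rose, a rise that was lost without control 1, control 3, KO 3 or KO 4. The lymphatic genes *Lyve1* and *Flt4* had 406, 561 and 299 against 142, 119 and 106, and 268, 369 and 239 against 106, 89.1 and 82.1 (-1.74 and -1.63), and the blood vessel genes *Pecam1* and *Cdh5* were not called (-0.21 and 0.04).

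The extracellular matrix changed in its proteases and in many of its collagens. Of 29 genes of matrix proteases and their inhibitors, 12 rose and 6 fell. *Mmp10* (stromelysin-2) had 1.88, 1.99 and 2.21 against 411, 2018 and 348 (7.78, SE 0.68, adjusted p = 1.7e-05 from limma), and *Mmp7* (matrilysin) had 12.2, 0 and 1.1 against 460.1, 893 and 323 (7.40, adjusted p = 0.00015). Replicate 3 was the highest KO library for *Mmp10* and *Mmp7* and also for *Mmp3*, *Mmp9* and *Mmp13*, with 137, 1471 and 396, 220.3, 672 and 232 and 328, 1573 and 350.4. *Mmp2* was not called (0.39). The inhibitor genes split, as *Timp1* rose (2.64) and *Timp2* fell (-1.45, adjusted p = 0.000402 from limma). Of 27 collagen genes, 16 fell and 2 rose (median log2 fold change -0.91). The fibril collagen genes *Col1a1*, *Col1a2* and *Col3a1* were not called, with -0.16, -0.03 and -0.34, and *Col1a1* had 2269, 2572 and 2466 against 2217, 2579.8 and 1794. Chains of collagen VI fell, with -1.16 for *Col6a1*, -1.05 for *Col6a2* and -1.18 for *Col6a3*, whereas *Col6a4* rose (0.78, adjusted p = 0.0097 from limma). The collagen IV chains *Col4a5* and *Col4a6* fell (-2.07 and -2.83) and *Col4a1* was not called (-0.32).

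In the basement membrane 11 of 16 genes fell and 3 rose, and laminin chains moved in both directions. *Lama3*, a chain of the epithelial laminin-332, rose, with 542, 755 and 455 against 1114, 2333 and 1026 (1.28, adjusted p = 0.00285 from limma), and *Lamb3*, of the same laminin, was not called (-0.27). *Lama2*, *Lama4*, *Lamb2* and *Lamc3* fell, with -1.40, -0.89, -1.64 and -1.45. The number that fell was 7 under the study's threshold. Of 28 stromal WNT, R-spondin and BMP signal genes 9 fell and 1, *Hgf*, rose (2 without control 1, KO 3 or KO 4). The BMP antagonist genes *Chrdl1* and *Nog* fell (-2.39 and -3.05), and *Grem1* was not called, with 231, 379 and 264 against 631, 791 and 155. *Ihh*, the hedgehog signal of colonocytes, had 1927, 3199.9 and 2688 against 983, 601 and 748 (-1.74, adjusted p = 0.000711).

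Of 26 tested HOX genes, 10 fell and 1 rose (2 without KO 4), and the median log2 fold change was -0.36. The 11 called are a share under the background of 45.5%. By direction, the 10 that fell are a share above the 22.9% of all genes, and the 1 that rose a share under the 22.7%. *Hoxd9* had 300.5, 371 and 299.9 against 113, 81.4 and 105 (-1.70, adjusted p = 4.5e-05 from limma), and the more posterior genes *Hoxa10*, *Hoxa11*, *Hoxd10* and *Hoxa13* had -1.78, -1.84, -1.63 and -2.98. *Hoxa7* rose, with 459.7, 481 and 652 against 1349, 1222 and 1060.0 (1.20, adjusted p = 0.000627 from limma). *Hoxb6* and *Hoxb9*, among the most abundant of the family, were not called (-0.05 and 0.25). The epithelial factors *Cdx1* and *Cdx2* were not called either (0.18 and -0.27). Of 8 small intestine markers 2 fell and 2 rose, among them *Gata4* with 0, 0 and 5.51 against 18.6, 27.1 and 37.2 (3.89, adjusted p = 0.00132 from limma), and 1 rose without control 2, control 3 or KO 4. Whether the pieces of colon were taken at the same position was not tested.

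Of 19 clock genes 8 fell and 3 rose. *Cry2* had 691, 970.2 and 914 against 352, 264 and 244 (-1.58, adjusted p = 6.39e-05 from limma), and *Nfil3* rose, with 377, 231 and 359 against 613, 712 and 875 (1.20, adjusted p = 0.000963). *Nr1d1*, whose level swings over the day, had 465, 1659 and 270.1 against 208, 147 and 113, with control 2 far above the other controls, and lost its call without control 2 or KO 4. The number that fell was 4 without control 2 and 5 without KO 4. *Per1* and *Per2* were not called (0.70 and 0.16), and the hour of sampling is not given in the sources used here. Of 24 immediate-early genes, 3 rose and 3 fell, a share under the background. *Fos* and *Jun* were not called (0.01 and -0.40), while *Fosb* fell, with 279, 300.2 and 196 against 27.4, 25.2 and 23 (-3.29, adjusted p = 0.000189 from limma), and *Myc* rose, with 375, 307 and 469 against 949.6, 975 and 960.4 (1.34, adjusted p = 0.00022).

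The classes of transcript differed in the direction of change. Of 155 variable segments of immunoglobulin genes, 101 rose and none fell, as did 10 of 12 constant genes and 6 of 7 T cell receptor constant genes. Of 1057 long noncoding RNAs, 10.6% rose and 24.7% fell, and the median log2 fold change was -0.28, whereas of 14345 protein-coding genes 23.5% rose and 24.2% fell. Processed pseudogenes, whose reads can come from their parent genes, rose in 18.7% and fell in 4.10% of 683. By level, 14.5% of the 3396 genes with a mean of 10 to 50 normalized counts rose and 28.9% fell, and of the 589 most abundant genes it was 27.7% and 25.6%. Mast cell markers were sparse, with 2 of 7 higher (0 with a minimum of 50 normalized counts and 5 in a fit of the 6 libraries alone). *Hdc*, the histamine-making enzyme, had 9.42, 7.95 and 8.82 against 102, 217 and 116 (3.83, adjusted p = 0.000871 from limma), the mast cell protease gene *Cpa3* had at most 4.97 in a control and 17.6 in another library, and *Kit*, which other cells share, had 1371, 1029 and 613 against 957, 563 and 440.2. The summed level of mast cell markers, 1407, 1098 and 662 against 1291, 892 and 776, was mostly *Kit*. Of 5 tested red blood cell markers none rose and 1 fell, and the summed levels overlapped. Of 7 squamous epithelium markers 3 fell, and the defining genes *Krt5* and *Krt14* had at most 17.4 and 28.8 normalized counts in a library.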

How the data were processed

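RNA-seq profiled pieces of frozen colon in 3 libraries from Tfam fl/fl mice (the control group) and 8 from Tfam fl/fl Cd4 Cre mice, 3 of them without cell transfer (KO) and 5 after receiving CD4 T cells (transferred). Per the submitters' processing notes, the tools were HISAT2 2.2.1, SAMtools 1.13, HTSeq 1.99.2 and DESeq2 1.40.2 on GRCm39. The deposited signal is a table of gene counts divided by a size factor for each library. Whole reads were recovered for all values within 0.05 of a read, giving 18214741 to 19178986 reads per compared library, and these served the count tests only. Gene symbols came from GENCODE M39 for 22657 of 22836 identifiers (99.2%).

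Differences were tested with limma 3.58.1 in R 4.3.3 with a variance trend on log2(normalized count + 1), fitted to all 11 libraries for genes averaging 10 or more, with Benjamini-Hochberg adjustment over all 16781 genes and a threshold of 0.05. The test was run on simulated reads with few changed genes and a fixed rule for the spread. That does not check it for data in which 45.5% of genes are called, and a gene not called may still differ. Alternatives were a pseudocount of 0.5 or 10, no filter, a minimum of 50, TMM scaling, quantile normalization, count tests of the recovered reads with edgeR 4.0.16 or DESeq2 1.42.0, the 6 libraries alone, no variance trend, a replicate block, the study's threshold (unadjusted p under 0.05 and over 0.6 log2 units), an adjusted p under 0.01, and each library left out. Summed marker levels add the normalized counts of a list, and the median log2 level was their alternative.

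The comparison and the gene lists were chosen with earlier results of these data known. Genes were named by a rule: *Tfam* and *Cd4*, the 12 largest log2 rises and falls (called, groups apart, and a mean of 50 or more in the group with the higher level), the 8 largest gains and losses in normalized counts, up to 4 called members of each list in each direction by adjusted p, and the intestinal genes that the study measured by PCR. Other list members were named as examples after their values were seen. A group with no read was set to a floor of 3 reads over the group. Promoter bases were read from GRCm39 at the start of the canonical GENCODE M39 transcript, on the strand of the gene, and motifs were searched on both strands. Floors cover counting error only. Some genes and sequences are not reported here.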

Additional observations from a re-analysis of the deposited data

How the results depend on the processing

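The direction of each called gene that the rule named was kept in every alternative. In many of these the fold change could not move. They change only the filter, the estimate of the spread or the threshold, or leave out a transferred library. Many of these genes were also picked for groups that lie apart, which makes a change of direction unlikely. Of 269 genes named by the rule, 260 were called, and 44 of these lost the call in at least 1 alternative, 32 of them when a library was left out and 20 under the study's threshold. The rule mostly picks genes with a small adjusted p or a large change in these data, so their calls are firmer than most. Of all 7641 called genes, 5370 kept the call with each single library left out. The count of called genes was 7641 and lay between 6029 (without KO 3) and 7972 (without transferred 6) with 1 library left out, the genes that rose between 2895 and 3981 and those that fell between 3134 and 3991. It was 7629 with edgeR, 7981 with DESeq2, 7652 with TMM scaling and 7420 with quantile normalization. At an adjusted p under 0.01 it was 5091, of which 2430 rose, and no other alternative moved it over 1.5 times. With no filter it was 8415 and with a minimum of 50 it was 6161.

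With the median log2 level of the markers in place of their summed counts, the log2 difference was 2.25 for mast cell (-0.10 by the sum), -1.64 for glia (-1.29), -2.60 for fat cell (-1.52), -3.04 for mesothelium (0.24), -0.88 for squamous epithelium (0.09), 0.81 for small intestine (-0.40), 0.43 for colon identity (-0.39) and -1.88 for smooth muscle markers (-2.32). TMM scaling moved none of the sums beyond the spread between replicates. With a minimum of 50 normalized counts, which leaves fewer genes to test, the count of checkpoint genes that rose was 4 in place of 17 and that of the interleukin 17, 22 and 6 families 6 in place of 11.

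Libraries of the control and KO groups share only the numbers 1 and 3, and the deviations of same-numbered libraries correlated at 0.0537 and 0.0569 across genes, so the numbers were not taken to pair them. With the replicate block 6875 genes were called, 3377 higher and 3498 lower, and 9 of the 260 named genes lost their call. The block moved 8 list counts over 1.5 times, among them the cell cycle genes that rose (11 in place of 20) and the goblet cell genes that rose (14 in place of 8). Genes with a mean of 10 to 50 normalized counts rest on few reads in a library.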
